A study of Homo sapiens with 7 samples.

Results

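The small nuclear RNA (snRNA) genes of the human genome were examined for Myc binding in HT29, an established cell line derived from human colon adenocarcinoma. They were taken as all genes of biotype snRNA in the RefSeq annotation of GRCh38.p14 (hg38) other than RN7SK, which gave 155 of the 59792 genes in that table. A gene was counted as bound when the summit of an authors' Myc peak lay inside it or within 1 kb of either end. Of these, 7 genes known only by a LOC number had no usable chromosome position, which left 148 genes for the counts. The class of a gene was read from its symbol (RNU1 and RNVU1 for U1, then RNU2, RNU4, RNU5 and RNU6), with RNU11, RNU12, RNU4ATAC and RNU6ATAC kept together as the minor class.

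Binding had been measured by CUT&RUN, in which an antibody directs a nuclease to the protein of interest and the DNA cut out around it is sequenced. All cells had received oleic acid for 6 h in serum-free medium. There were 3 Myc libraries, 3 IgG libraries and 1 input, and the labels name a Myc antibody for the IgG libraries too, so the titles were followed. Nothing in the sources used here says whether the replicates were separate cultures, and all libraries share 1 cell line and 1 treatment, so no effect of oleic acid could be measured. The authors' list holds 47016 peaks on chromosomes 1 to 22, X and Y, with 1 fold enrichment of Myc over control for each and no value for any single library. A spread between replicates and a test over samples could therefore not be computed for any comparison that follows, and every comparison is a description of this list. From each fold and its p-value, the pileup (how many fragments overlap the summit) and the control level (how many would be expected there) were recovered. The intervals given are 95% intervals for counting error only, Wilson for shares and exact Poisson for folds. Those for folds vary the Myc pileup alone and take the control level as exactly known, so they are too narrow. Peaks do not measure RNA, so the expression of these genes, and of markers of the cell type, was not analysed here.

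Spliceosomal snRNAs are short noncoding RNAs that, with proteins, form the snRNPs that recognise splice sites and carry out splicing. U1 pairs with the 5′ splice site, U2 with the branch point, and U4, U5 and U6 enter together as the tri-snRNP. U11, U12, U4atac and U6atac do the same work, with the shared U5, on the rare class of introns called minor. RNA polymerase II transcribes most of these genes and RNA polymerase III those for U6 and U6atac, from promoters with a proximal sequence element bound by the SNAPc complex and a distal element that often holds an octamer bound by POU2F1 (Oct-1). Myc is a transcription factor with known targets at genes read by each of the nuclear RNA polymerases, and its best known recognition sequence is the E-box CACGTG.

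The annotation's biotype is wider than the label spliceosomal. It includes RNU7-1, whose product U7 acts in the 3′ end processing of histone mRNA, and 28 SNAR genes, which encode small cytoplasmic RNAs of primates that bind NF90 and are not part of the spliceosome. It also includes 79 of the placed genes under LOC numbers that name no class. These groups are described apart from the 41 genes with RNU or RNVU symbols.

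Myc summits lay near most of the snRNA genes with RNU or RNVU symbols, and with folds above those of most peaks. Of those 41 genes, 36 had a summit within 1 kb (87.8%, interval 74.5 to 94.7). That interval is too narrow, since it treats genes as independent although 21 of the 41 belong to U1 and copies share sequence. The share was 36.0% among all 58957 RefSeq genes placed on a chromosome and 9.06% among the 10600 placed genes of at most 500 bp, which have a window of similar size. The median fold at the strongest summit of the 36 genes was 8.14 (range 3.75 to 15.1), beside 7.20 for all RefSeq genes with a summit, 5.74 for the short ones and 4.11 for all peaks. In 35 of the 36 the fold was above the median peak, RNU6-7 at 3.75 being the exception. Over all 148 placed members, 64 had a summit (43.2%, 35.5 to 51.3), with the same median fold of 8.14 and a range from 1.69 to 15.4. The plot of folds by class shows how unequal the groups inside that total were.

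**Figure D1:**
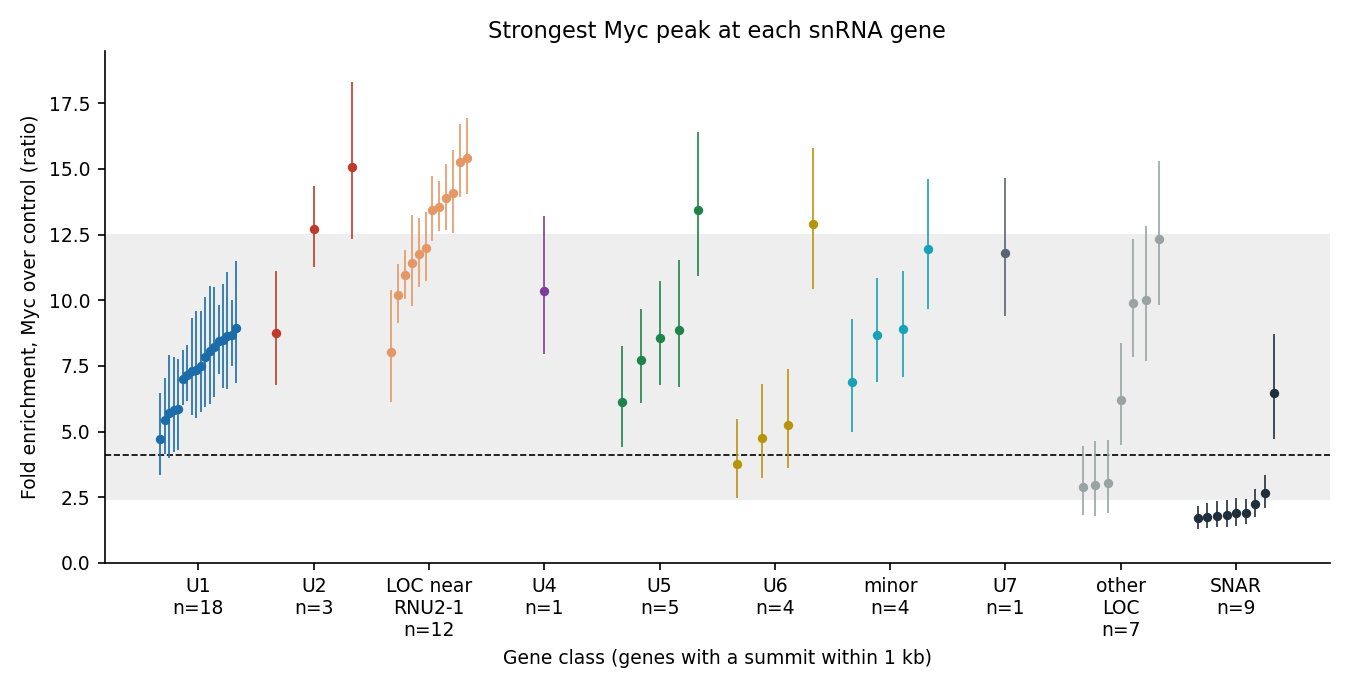
Fold enrichment (ratio of Myc to control) of the strongest Myc peak within 1 kb of each snRNA gene with a summit, 1 point a gene, by class, with exact Poisson 95% intervals for counting error of the pileup. The dashed line is the median of all 47016 peaks (4.11) and the grey band spans their 5th to 95th percentile (2.42 to 12.5); of the SNAR genes, 8 of 9 lie under the line, while all 18 U1 genes lie above it.

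No stretch of the RefSeq promoter table starts at an snRNA gene, but 12 distinct promoter windows of other genes lie within 150 bp of 10 members or overlap them. The 4 shown here, with GRCh38.p14 positions, are the 250 bases before the start of C12orf57 (chr12:6943772-6944021, + strand), which hold the whole of RNU7-1, and the bases before SIRT4 (chr12:120291939-120292188, + strand), MED16 (chr19:893188-893437, − strand) and the long noncoding gene LOC105374852 (chr2:88016628-88016877, + strand), which hold an octamer beside RNU4-2, RNU6-9 and RNU2-63P. Capitals mark the 63 bases of RNU7-1 in the first and the octamer, ATTTGCAT or its reverse complement, in the others.
C12orf57 window with RNU7-1: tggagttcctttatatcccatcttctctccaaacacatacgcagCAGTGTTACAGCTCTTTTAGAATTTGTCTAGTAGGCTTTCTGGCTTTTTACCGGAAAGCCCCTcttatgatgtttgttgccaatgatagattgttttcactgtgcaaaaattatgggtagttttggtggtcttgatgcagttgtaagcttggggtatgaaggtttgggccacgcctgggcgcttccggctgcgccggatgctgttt
SIRT4 window beside RNU4-2: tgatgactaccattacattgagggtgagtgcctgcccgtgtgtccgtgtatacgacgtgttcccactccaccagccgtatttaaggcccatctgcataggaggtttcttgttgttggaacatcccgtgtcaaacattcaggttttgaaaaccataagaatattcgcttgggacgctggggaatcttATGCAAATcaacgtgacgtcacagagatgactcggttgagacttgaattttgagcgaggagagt
MED16 window beside RNU6-9: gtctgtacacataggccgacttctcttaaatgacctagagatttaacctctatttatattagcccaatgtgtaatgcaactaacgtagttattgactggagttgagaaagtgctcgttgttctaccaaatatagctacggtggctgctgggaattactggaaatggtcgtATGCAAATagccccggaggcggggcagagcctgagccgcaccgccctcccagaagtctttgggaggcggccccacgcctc
LOC105374852 window beside RNU2-63P: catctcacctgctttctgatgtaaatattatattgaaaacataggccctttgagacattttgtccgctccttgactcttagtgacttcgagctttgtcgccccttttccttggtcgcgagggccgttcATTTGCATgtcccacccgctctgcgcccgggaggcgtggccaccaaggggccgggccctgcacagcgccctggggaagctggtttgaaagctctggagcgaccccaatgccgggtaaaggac
The octamer lay 222 bp from RNU4-2, 217 bp from RNU6-9 and 209 bp from RNU2-63P. It was in 3 of the 12 windows, searched on both strands, and in 570 of all 34943 promoter windows (1.63%). The E-box CACGTG was in none of the 12 and in 6.32% of all windows. Several of the 12 belong to LOC105374852 and overlap, so they are not separate promoters. Of the 10 members, 6 had a summit. So few windows cannot show a difference from the shares over all promoters. RNU4-2 and RNU2-63P had Myc summits and RNU6-9 had none, so the octamer stood beside genes with and without a summit. These are matches of letters in windows that belong to neighbouring genes, and the promoters of the other snRNA genes were not analysed here.

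U1 is the largest class with symbols, and 18 of its 21 genes had a summit (85.7%, 65.4 to 95.02), with a median fold of 7.41 and the narrow range of 4.70 to 8.94. The 4 RNU1 genes in the short arm of chromosome 1 encode the main U1 RNA, and the 17 RNVU1 genes around the centromere and in the long arm encode variants of it. All 4 RNU1 genes had a summit, as had 14 of the 17 RNVU1 genes. The highest fold belonged to RNVU1-14 (chr1:145281116-145281279), at 8.94 (6.84 to 11.5), from 59 fragments over a control level of 5.71 in a peak of 2813 bp. RNU1-2 (chr1:16895980-16896143) was next at 8.69 (7.498 to 10.02), from 187 fragments over a control level of 20.6 in a peak of 4971 bp. RNVU1-18 (chr1:143729407-143729570) followed at 8.63 (6.62 to 11.1), from 60 fragments over 6.07 in 2106 bp. These 3 intervals overlap throughout, so counting error alone leaves their order undetermined.

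The other 3 RNU1 genes had folds of 8.43 (RNU1-1), 7.16 (RNU1-3) and 7.004 (RNU1-4). The remaining variant genes ran downward from 8.47 at RNVU1-1, 8.21 at RNVU1-27, 8.07 at RNVU1-6 and 7.83 at RNVU1-4 to 7.48 at RNVU1-7, 7.34 at RNVU1-15 and 7.29 at RNVU1-31. Below these were RNVU1-30 at 5.84, RNVU1-28 at 5.82, RNVU1-8 at 5.70, RNVU1-19 at 5.45 and RNVU1-3 at 4.70. The folds of the main U1 genes thus lay within the range of the variants, with medians of 7.80 and 7.41, and those 5 variants were below every RNU1 gene. The levels behind the folds differed more: the RNU1 summits had 162 to 187 fragments over control levels of 18.3 to 24.6, and the RNVU1 summits 34 to 74 fragments over 5.14 to 9.82, with no overlap in either. The median control level over all peaks was 5.92, and 0.787% of peaks had one above 14. How reads that fit several near-identical copies were placed is not given in the sources used here, and the part of this in the levels was not tested.

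The other 3 U1 genes, all variants, had no summit within 1 kb. The nearest lay 6019 bp from RNVU1-2A, 29497 bp from RNVU1-17 and 33685 bp from RNVU1-26. They stood beside bound copies: RNVU1-17 shares a span of 30.1 kb with RNVU1-18, whose fold was 8.63, and RNVU1-2A and RNVU1-26 share one of 37.0 kb with RNVU1-28, whose fold was 5.82. At none of the 18 was the strongest summit within 1 kb of either end of a coding gene. Ends of noncoding genes were not part of that count.

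**Figure D2:**
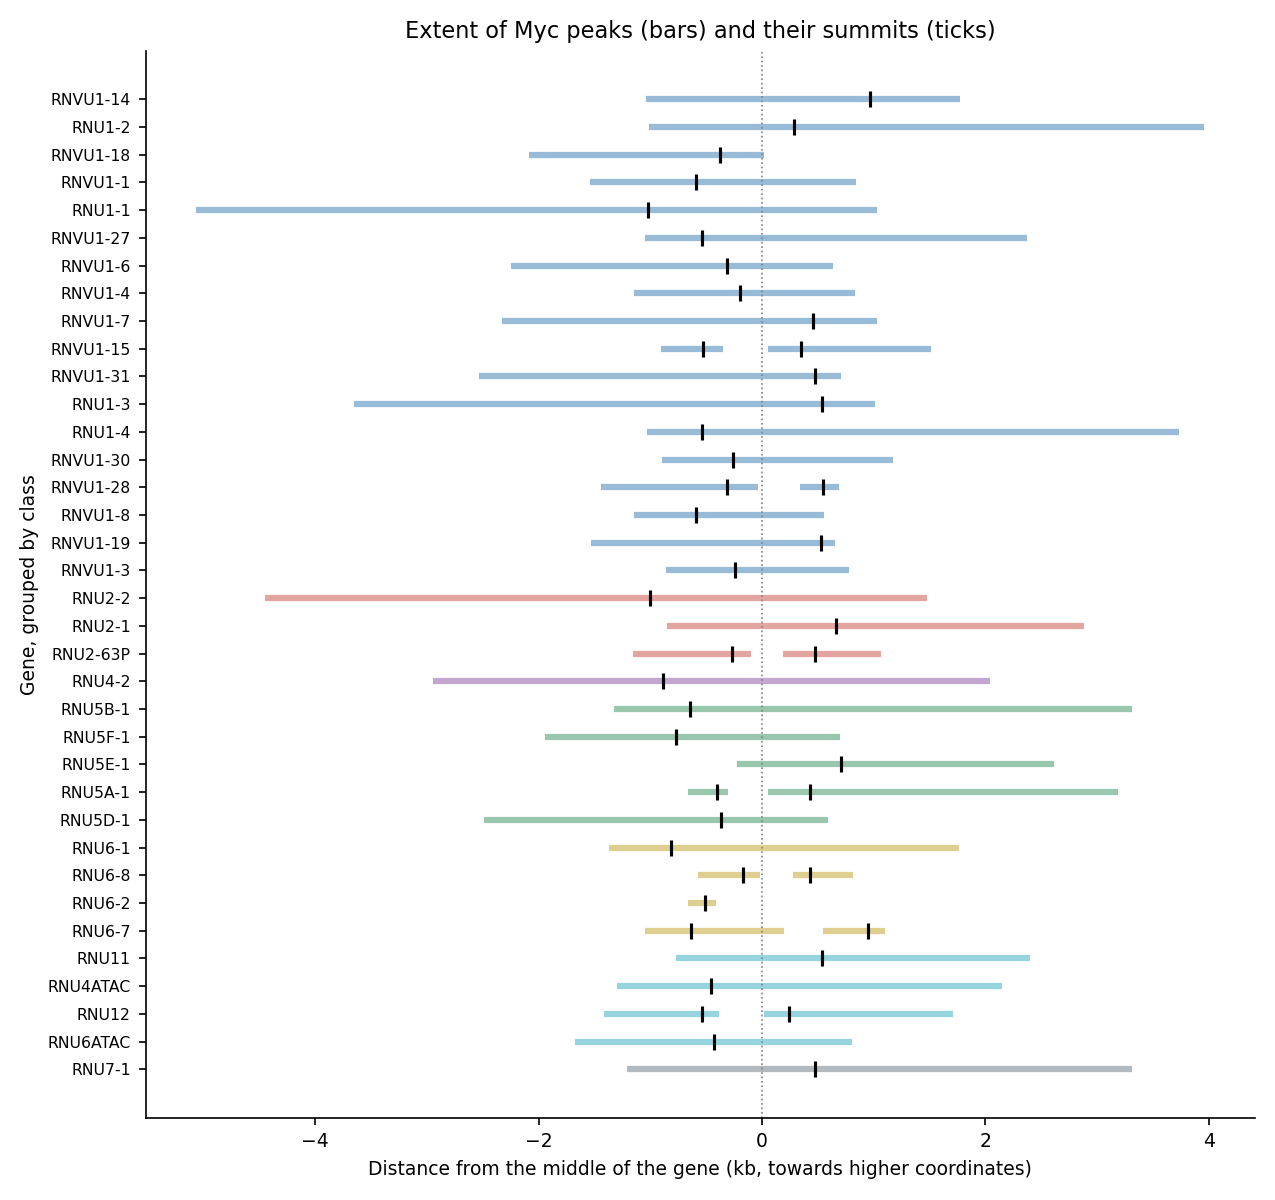
Extent of each Myc peak (bar) and its summit (tick) within 1 kb of the 36 RNU and RNVU genes with a summit, as distance in kb from the middle of the gene (dotted line) towards higher coordinates, ordered by class and by fold. No tick stands on a gene, 26 genes have a strongest peak over 2 kb wide, and 7 genes have a summit on each side.

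U2 had the highest median fold of the classes with RNU symbols, 12.7, with a summit at all 3 genes. That median is the fold of the 1 gene RNU2-1, and the U2 range of 8.74 to 15.1 overlaps that of U5, 6.11 to 13.4. RNU2-2 (chr11:62841619-62841809), which lies inside the WDR74 gene, had 15.1 (12.3 to 18.3), from 101 fragments over a control level of 5.76 in a peak of 5932 bp. Its summit was 912 bp from RNU2-2 and 1102 bp from the end of WDR74, and it ranked above 97.4% of all peaks. RNU2-1 (chr17:43233790-43233977) had 12.7 (11.3 to 14.3), from 266 fragments over a raised control level of 19.97 in 3732 bp. RNU2-63P (chr2:88016358-88016547), which carries the P of a pseudogene in its symbol though its biotype is snRNA, had 8.74 (6.78 to 11.1), from 65 fragments over 6.55. It stood in a gap between that peak, with its summit 382 bp higher, and another, and neither peak covered it. The other peak had its summit 171 bp lower and a fold of 7.49. The higher summit lay 52 bp past the bases shown above before a start of the long noncoding gene LOC105374852. That summit was thus closer to this start than to RNU2-63P. Other windows of the same gene ended 275 and 291 bp below the higher summit. To which gene the peak belongs was not tested.

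RNU2-1 opens a cluster of 14 snRNA genes that spans 134 kb of chromosome 17 (43233790 to 43368087), and 13 of the 14 had a summit. The other 13 have LOC numbers, and their lengths of 189 to 192 bp are close to the 188 bp of RNU2-1. Tandem repeats of the U2 gene are known at this place on chromosome 17. Several neighbours stand at a near-constant spacing, with 6131, 6134, 6152, 6155 and 6161 bp from 1 gene start to the next, and other gaps range from 1259 to 67858 bp. The median fold of the 13 bound genes was 12.7, with a range from 8.04 to 15.4, so that all of them were above the 4.11 of the median peak.

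The 2 highest folds of all members were in this cluster. LOC124904144 (chr17:43300041-43300231) had 15.4 (14.04 to 16.9), from 449 fragments over a control level of 28.2 in a peak of 2523 bp. LOC124904146 (chr17:43273101-43273292) had 15.3 (13.9 to 16.7), from 469 over 29.8 in 2567 bp. LOC124904136 (chr17:43241180-43241370) had 14.1 (12.6 to 15.7), from 313 over 21.3 in 3170 bp. The folds of the first pair differ by much less than their counting intervals. The highest pileup, 812 fragments over a control level of 58.9, was at LOC124904137, where the fold was 13.6.

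The summit stood at the same place beside several copies. It was 445 bp above the higher end of LOC124904141, LOC124904142 and LOC124904144, and 443 bp above LOC124904146, whose peaks had folds of 13.5, 13.9, 15.4 and 15.3. It was 802, 786 and 795 bp below the lower end of LOC124904135, LOC124904139 and LOC124904143, with folds of 11.8, 11.99 and 10.2. LOC124904140 was the only one of the 64 bound members with its strongest summit inside the gene, at a fold of 11.4. LOC124904145 was the 1 gene of the cluster without a summit in reach, although a peak with a fold of 8.77 had its summit 1133 bp away.

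Copies of 1 sequence cannot be counted as separate observations here. Of the 42 peaks in the cluster, 15 had a summit within 1 kb of a gene, and the other 27 had a median fold of 4.52 (2.51 to 8.77). Control levels at the strongest summits of the 12 bound LOC genes ran from 6.21 to 58.9 with a median of 29.0, and were lowest at LOC124904147, whose start lies 67858 bp beyond that of its neighbour and which had a fold of 8.04 from 57 fragments. The raised control level moves with this cluster, and its part in the folds was not tested.

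**Figure D3:**
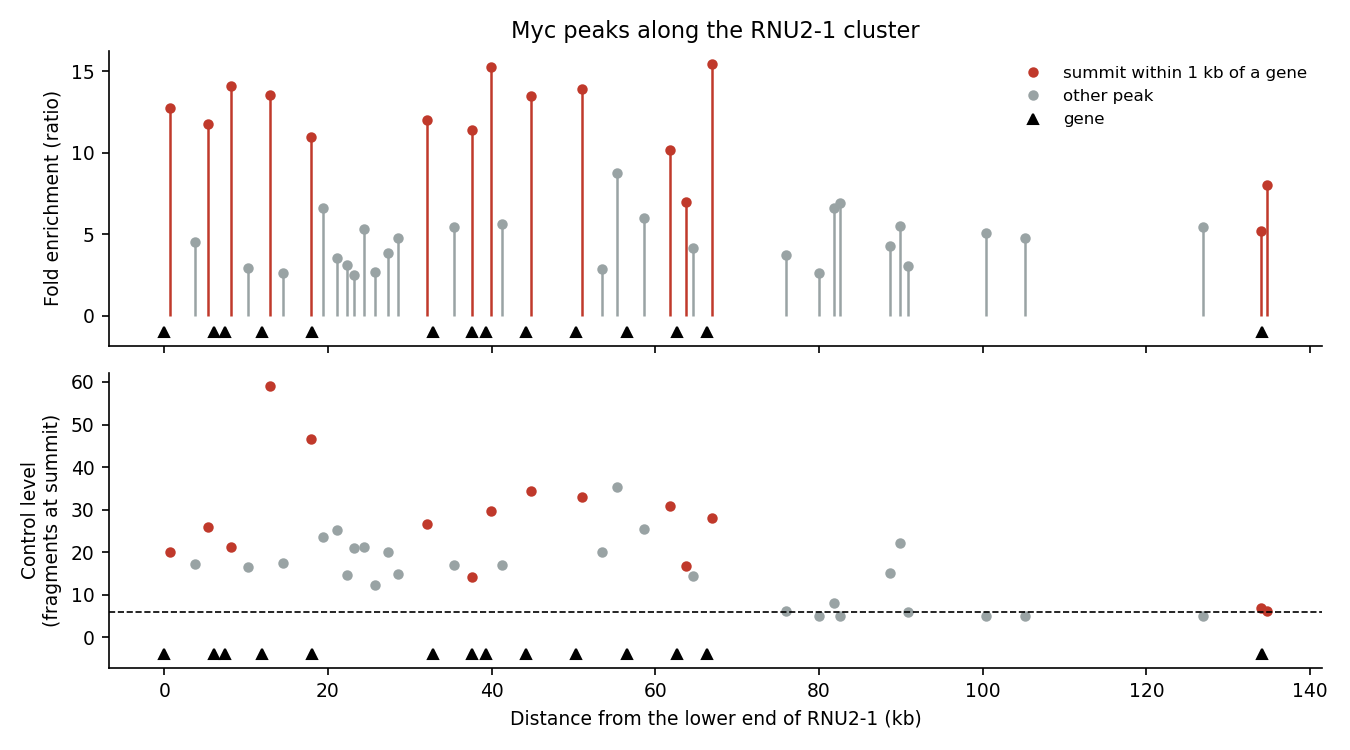
Myc peaks along the RNU2-1 cluster by distance from the lower end of RNU2-1 (kb): fold enrichment (ratio, upper panel) and control level at the summit (fragments, lower panel), with genes as triangles and the control level of the median peak (5.92) as a dashed line. Peaks with a summit within 1 kb of a gene (red) reach folds of 15.4 and control levels of 58.9, and the 27 other peaks (grey) reach a fold of 8.77.

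The pair of U4 genes on chromosome 12 lay under 1 peak. RNU4-2 (chr12:120291759-120291903) had a fold of 10.3 (7.97 to 13.2), from 62 fragments over 5.09, the lowest control level in the list, in a peak of 4993 bp. Its summit was 814 bp below RNU4-2 and 835 bp from an end of SIRT4, the gene of a mitochondrial sirtuin. RNU4-1 (chr12:120293093-120293237) lay inside the same peak over its full length but 2148 bp from the summit, and so counted as without one. The class therefore had 1 of 2 genes with a summit by the rule and 2 of 2 under a peak.

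All 5 U5 genes had a summit, with a median fold of 8.58. RNU5B-1 (chr15:65304677-65304793) had 13.4 (10.9 to 16.4), from 96 fragments over a control level of 6.21 in a peak of 4638 bp. RNU5F-1 (chr1:44721785-44721902), inside ARMH1, had 8.86 (6.68 to 11.5), from 53 fragments over 5.09 in 2638 bp. RNU5E-1 (chr1:11908152-11908272) had 8.58 (6.77 to 10.7), from 75 fragments over 7.86 in 2843 bp. RNU5A-1, in a span of 8.74 kb with RNU5B-1, had 7.72, and RNU5D-1, in a span of 9.39 kb with RNU5F-1, had 6.11. The interval of RNU5B-1 overlaps slightly with that of RNU5F-1 and does not overlap those of the other 3.

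The U6 genes, read by RNA polymerase III, had the lowest median of the classes with RNU symbols, 5.01 over the 4 of 5 genes with a summit. A single gene stood above the others: RNU6-1 (chr15:67839939-67840045) had 12.9 (10.4 to 15.8), from 92 fragments over a control level of 6.21 in a peak of 3143 bp. RNU6-8 (chr14:32203163-32203269) had 5.25 (3.62 to 7.39), from 31 fragments over 5.09 in 540 bp. RNU6-2 (chr19:1021522-1021628) had 4.76 (3.22 to 6.81), from 28 fragments over 5.09 in only 251 bp, and that summit was 55 bp from an end of TMEM259. RNU6-7 (chr14:32202045-32202151) had 3.75 (2.48 to 5.47), from 25 fragments over 5.93 in 1241 bp. It shares with RNU6-8 a weaker summit between them, with a fold of 2.60. RNU6-9 had no summit within 9392 bp, although it is like RNU6-2 a gene of chromosome 19. The interval of RNU6-1 did not reach those of the other 3, whose intervals overlap each other.

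The 4 genes of the minor spliceosome all had a summit, with a median fold of 8.81, close to the 8.58 of U5. RNU11 (chr1:28648600-28648734) had 11.9 (9.66 to 14.6), from 92 fragments over a control level of 6.78 in a peak of 3175 bp, 930 bp from an end of TAF12. RNU4ATAC (chr2:121530880-121531009), inside CLASP1, had 8.92 (7.07 to 11.1), from 78 fragments over 7.86 in 3444 bp, and no end of a coding gene was within 1 kb of that summit. RNU12 (chr22:42615244-42615393) had 8.69 (6.87 to 10.9), from 76 fragments over 7.86 in 1028 bp, 102 bp from an end of POLDIP3. RNU6ATAC (chr9:134164439-134164564) had 6.89 (4.99 to 9.29), from 41 fragments over 5.09. The interval of RNU11 does not meet that of RNU6ATAC, and the other pairs overlap. RNU7-1 (chr12:6943816-6943878), whose sequence stands in the C12orf57 window above, had 11.8 (9.40 to 14.7), from 80 fragments over 5.86 in 4522 bp, with its summit 444 bp higher and 889 bp from an end of C12orf57.

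Summit positions are described only within the 1 kb limit, which bounds the distances at these genes and at other short genes. The strongest summit was inside none of the 36 RNU and RNVU genes, and in 55 of the 960 bound genes of at most 500 bp (5.73%). Its median distance was 449 bp, beside 412.5 bp for the short genes, and it was 251 to 500 bp away at 18 of the 36. With a window of 500 bp in place of 1 kb, 24 of the 41 RNU and RNVU genes and 41 of the 148 members had a summit. Shares over all genes and over short genes were computed for the 1 kb window only. Just inside the limit were RNU1-1 at 944 bp and RNU2-2 at 912 bp, and just outside were SNAR-A5 at 1090 bp, LOC124906343 at 1091 bp and LOC124904145 at 1133 bp. Peaks covered 28 of the 36 genes in full, 6 in part and 2 not at all. At 7 of the 36 there was a summit on each side of the gene, namely at RNVU1-15, RNVU1-28, RNU2-63P, RNU5A-1, RNU6-7, RNU6-8 and RNU12, and 4 further members had the same arrangement. More than 1 summit was in reach at 116 of the 960 bound genes of at most 500 bp (12.1%), beside 19.4% of the 36. At 99 of those 116 the summits were on both sides. RNU1-3, RNU1-4 and RNVU1-27 had their summits at 457, 458 and 459 bp, on the higher side of the first and the lower side of the others. The strand of the genes is not in the table used and was not read from their sequences, so upstream and downstream were not told apart.

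The peaks were wide. At the 36 genes the strongest peak had a median width of 2865 bp, and 26 of them were over 2 kb, which held for 10.0% of all peaks and 27.0% of the strongest peaks at genes of at most 500 bp. Among distinct summits with folds from 6 to 10, the 23 at these genes had a median width of 2843 bp and 73.9% were over 2 kb, beside 1365 bp and 22.4% for the 8686 such peaks in the whole list. The narrowest was that of RNU6-2, at 251 bp, and the widest that of RNU1-1, at 6094 bp. At 31 of the 36 genes the strongest summit was more than 1 kb from the ends of coding genes, RNU4-2, RNU6-2, RNU11, RNU12 and RNU7-1 being the other 5. Ends of noncoding genes were not counted here either. RNU2-2 was only just among the 31, with its summit 1102 bp from an end of WDR74. With peaks over 2 kb left out, 11 of the 41 genes had a summit, with a median fold of 5.70. The share over all genes was not computed without those peaks.

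Among snRNA genes with LOC numbers, those outside the U2 cluster were mostly unbound. Of 66, 7 had a summit (10.6%, 5.23 to 20.3), a share near the 9.06% of short genes, and the 59 others were a median of 27930 bp from the nearest summit. They differed by length, in groups set after the lengths were seen. Of the 27 genes of over 70 to 120 bp, none had a summit, for which the Wilson interval reaches up to 12.5%. Of the 27 of up to 70 bp, 2 had one, with folds of 2.95 and 3.04, under the median peak. Of the 12 of over 120 to 200 bp, 5 had one (41.7%, 19.3 to 68.0). The highest was LOC124900516 (chr2:97664591-97664731), at 12.3 (9.81 to 15.3), from 80 fragments over 5.57, but 283 bp from an end of ACTR1B. Another 3 were in the region of the RNVU1 genes on chromosome 1, with lengths of 160 to 164 bp, near the 164 bp of RNU1-1: LOC124904631 had 10.0, LOC124904613 9.90 and LOC124904634 6.22. The fifth, LOC124904122, had 2.90, under the median peak. The RefSeq table does not name the class of these genes.

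The SNAR genes stood apart from the rest. Of 28, 9 had a summit (32.1%, 17.9 to 50.7), with a median fold of 1.88, below the 2.42 that marks the 5th percentile of all peaks. Most stand in 3 clusters on chromosome 19. In the first (47907678 to 47955801) 4 of 10 genes had a summit, with folds of 1.69 to 2.22, and in the last (50092489 to 50140320) 4 of 12, with folds of 1.74 to 2.67. The pair SNAR-G2 and SNAR-G1 between them (49031669 to 49037147) had none. These 8 genes had 49 to 74 fragments over control levels of 25.5 to 35.04, beside 34 to 74 fragments over 5.14 to 9.82 at the RNVU1 genes. SNAR-E (chr19:46830585-46830704), outside the clusters, had 6.47 (4.71 to 8.70), from 42 fragments over 5.64. The control level thus moved with the low folds of the clustered genes, and its part in them was not tested. With peaks of a control level above 14 left out, 1 SNAR gene and 40 of the 148 members had a summit. No share over all genes was computed for that limit.

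**Figure D4:**
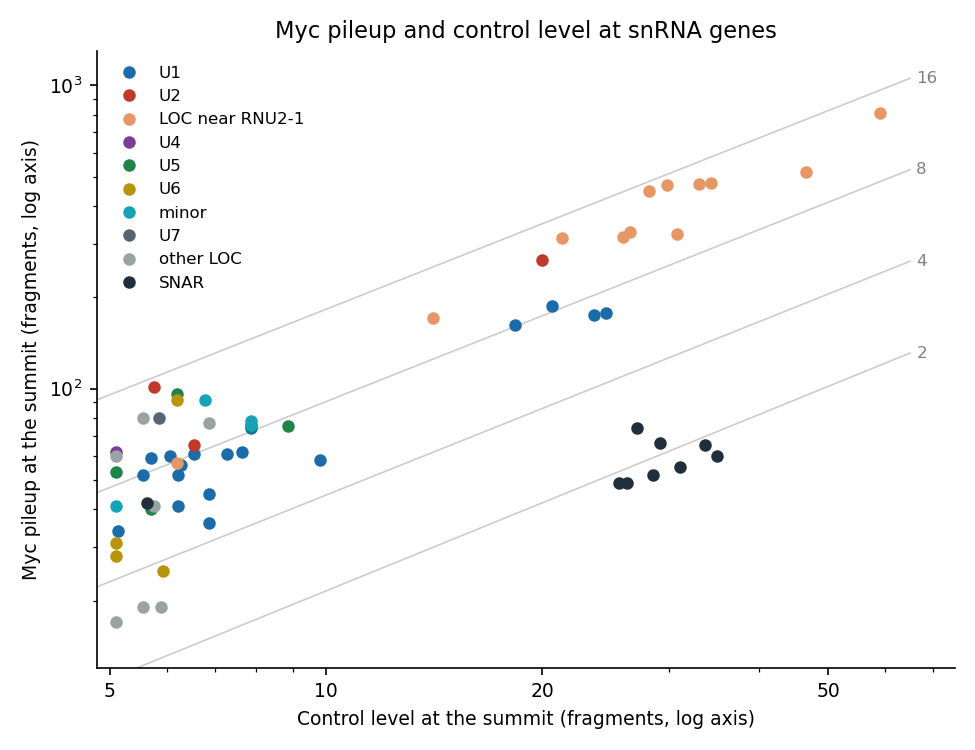
Myc pileup against control level at the strongest summit of each bound snRNA gene (fragments, both axes logarithmic), 1 point a gene, coloured by class, with grey lines for folds of 2, 4, 8 and 16. The RNU1 genes, RNU2-1 with its bound neighbours other than LOC124904147 (6.21) and the 8 bound SNAR genes of the clusters stand to the right of a control level of 14, and the 4 RNU1 genes keep folds between 7.004 and 8.69 while those 8 SNAR genes have 1.69 to 2.67.

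Other short RNA genes gave a scale for these shares. Of the RNU pseudogenes of at most 500 bp, 61 of 1815 had a summit (3.36%, 2.63 to 4.29), with a median fold of 4.76. In the U6 family 4 of 5 genes and 29 of 1277 pseudogenes (2.27%, 1.59 to 3.24) had one. For U1 it was 18 of 21 genes and 13 of 121 pseudogenes (10.7%, 6.39 to 17.5), and for U5 5 of 5 genes and 3 of 29 pseudogenes, 1 of which shared its summit with a member. Of the tRNA genes, also read by RNA polymerase III, 221 of 429 had a summit (51.5%, 46.8 to 56.2), with a median fold of 6.11. Of the miRNA genes 14.4% had one and of the snoRNA genes 8.30%, with median folds of 6.07 and 4.79. The Wilson intervals of the RNU and RNVU genes (74.5 to 94.7) and of these 4 kinds do not overlap. Genes within a kind share summits and sequence, so the true uncertainty is wider than these intervals, which treat genes as independent.

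Of 11 further genes of small structured RNAs, 10 had a summit. RN7SK, whose RNA holds the elongation factor P-TEFb inactive and whose promoter is built like that of U6, had a fold of 8.38. RMRP, for the RNA of RNase MRP, had 10.9, and RPPH1, for that of RNase P, had 5.33. The Y RNA genes had 11.1 (RNY5), 7.47 (RNY1), 4.88 (RNY4) and 4.83 (RNY3). Of the vault RNA genes, VTRNA1-1 had 7.52, VTRNA1-2 6.56 and VTRNA2-1 4.76, and VTRNA1-3 had no summit within 6956 bp. All of these genes are read by RNA polymerase III, and their folds ran from 4.76 to 11.1, beside 3.75 to 12.9 at the U6 genes.

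**Figure D5:**
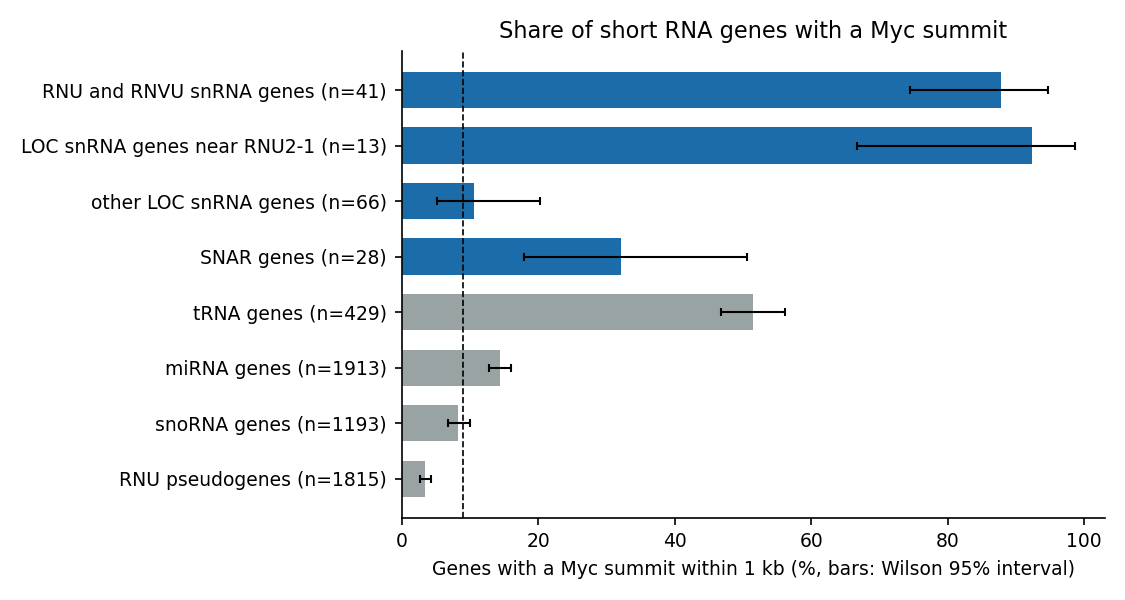
Share of genes with a Myc summit within 1 kb (%), for groups of snRNA genes (blue) and other short RNA genes (grey), with Wilson 95% intervals. The dashed line marks the 9.06% of all placed genes of at most 500 bp; RNU and RNVU genes (87.8%) and LOC genes near RNU2-1 (92.3%) are far above it, and RNU pseudogenes (3.36%) are below. The intervals treat genes as independent, and the repeated copies near RNU2-1 cannot be counted as separate observations.

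The protein-coding genes that make, process and package the snRNAs were nearly all bound as well. Counted within 1 kb of either end, 11286 of 19862 protein-coding genes had a summit (56.8%), with a median fold of 7.87. Of 17 genes for transcription of snRNA genes, 16 had one (94.1%, 73.0 to 98.95), with a median fold of 8.93. They were led by POU2F1 (15.9), which encodes the octamer-binding factor, ZNF143 (14.6), which encodes an activator of snRNA genes, and ZC3H8 (12.6), a subunit of the little elongation complex. The subunit genes of SNAPc all had one, from 7.15 at SNAPC1 to 12.5 at SNAPC2. BRF2, a factor used with RNA polymerase III at U6-type promoters, had none within 36985 bp.

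All 15 genes of Integrator, the complex that cleaves the 3′ ends of snRNA transcripts of RNA polymerase II, had a summit, with a median fold of 9.52. INTS13 had 24.0, INTS8 15.2 and INTS7 11.4, and the summits of INTS13 and INTS7 were also within 1 kb of an end of FGFR1OP2 and DTL. Of 20 genes for capping, export and assembly of the particles, 19 had a summit, with a median of 9.69. GEMIN5, which recognises snRNAs for the SMN complex, had 19.2, XPO1, the export receptor, had 16.99, and TGS1, which methylates the cap further, had 16.7 at a summit shared with TMEM68. GEMIN4 had none, its nearest summit being 2300 bp away. SMN1 and SMN2 are near-identical, so their folds of 7.48 and 7.88 may not be separate.

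Of 30 genes for proteins of the snRNPs, 29 had a summit, with a median fold of 9.03. SNRPA, for a U1 protein, had 30.0 (26.7 to 33.6) at a summit shared with ACTMAP. The Sm genes SNRPG and SNRPD2 had 21.7 and 20.4, the latter shared with QPCTL. SNU13, for a protein that binds U4, had none, its nearest summit being 1798 bp away. In the 4 lists 10 of 16, 10 of 15, 14 of 19 and 19 of 29 bound genes had a fold above 7.87, the median of bound protein-coding genes. By definition of a median, as many bound coding genes lie above it as below, and a difference from that was not tested. The highest folds of the proteins' genes thus exceeded those of any snRNA gene, where the highest was 15.4.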

How the data were processed

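CUT&RUN libraries of HT29 cells (3 Myc, 3 IgG, 1 input) underlie 1 peak list, in which the authors deposited for each peak an integer score, a fold enrichment (ratio) at the summit, the −log10 of its p-value and q-value, and the offset of the summit from the peak's start. Per the submitters' processing notes, BWA 0.7.15, SAMtools 1.5, Picard 2.19.0 and MACS2 2.1.2 were among the tools and hg38 was the build. The sources used here do not give settings, the control chosen, the joining of replicates, removal of duplicates or the treatment of reads from repeated copies. The depth of the libraries is not in the list. The lowest −log10 q in it is 1.30.

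Summits were set against gene positions in the RefSeq table of GRCh38.p14 with pandas 2.3.3. The strongest summit within 1 kb stood for a gene. Since MACS2 adds 1 to pileup and control level before dividing them, and takes its p-value from the Poisson distribution, a whole-number pileup was solved for, within 0.001 on the −log10 scale, at all 47016 peaks, and the procedure was tested on simulated data. Genes within 100 kb of each other formed a cluster, and there were 15 clusters of at least 2 members. Motifs were searched in the RefSeq promoter windows of genes within 150 bp of a member, since no member had an entry. Besides those in the report, the windows were searched for CACGCG (1 of 12, and 9.71% of all), CATGTG (2, 9.45%), CACGAG (0, 5.58%), TATATA (1, 3.74%), TATAAA (2, 10.8%), a spaced form of the proximal sequence element (1, 2.72%) and a ZNF143 core (0, 1.50%). Named genes were the 3 with the highest fold in each class, every RNU or RNVU gene with a summit, and those without. The members, lists and the rule were chosen with earlier results of these data known.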

Additional observations from a re-analysis of the deposited data

How the results depend on the processing

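No paired analysis was possible because the authors' list has no value for any single library, and for the same reason no replicate could be left out. With the window at 500 bp, the members with a summit were 41, with 1 for U2, 0 for U4, 2 for U5, 2 for U6 and 4 for SNAR genes. At 2 kb the SNAR genes had 14, and at 5 kb 21, with 2 for U4. With −log10 q of at least 5 the SNAR genes had 3, and with a fold of at least 4 they had 1. Without peaks wider than 2 kb, 28 members had a summit, with 11 for RNU and RNVU genes, 5 for U1, 1 for U2, 0 for U4, 1 for U5, 1 for the minor class and 8 for LOC genes. Median folds were then 4.96 over all members and 5.70 over RNU and RNVU genes. Without summits at ends of coding genes, U4 had 0 and the minor class 2. Counting genes that a peak overlaps gave 2 for U4 and 3 for SNAR genes. Without peaks of a control level above 14, a limit chosen after seeing the data, 40 members had a summit, with 1 for SNAR and 8 for LOC genes. Joining genes within 20 kb gave 9 clusters. The cause of these changes was not tested. Without peaks wider than 2 kb, the RNU and RNVU genes with a summit fell from 36 to 11 of 41. Shares over all genes were computed only for the 1 kb window with all peaks, so the altered counts have no matching share. The 93 other recomputed values moved by at most 1.5 times, 3 of them by that much (24 RNU and RNVU genes at 500 bp, and 2 U2 genes both without control levels above 14 and by peak overlap), or, for medians, stayed inside the counting interval of the member nearest the median.

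These counts cover only peaks the authors called, the depth of the libraries is unknown, and 1 list with no replicates left the variation between libraries unmeasured.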
